A study of Mus musculus with 22 samples.

Results

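Endothelial cells of the mouse barrel cortex, the field of somatosensory cortex that receives input from the whiskers, were compared between mice that explored with their whiskers and mice without whiskers. The comparison used 6 of the 22 libraries of the study, chosen by their titles and condition labels. Whisker plus, 3 libraries, came from wild-type C57BL/6 mice that roamed a freshly enriched cage in darkness. Whisker minus, 3 libraries, came from wild-type C57BL/6 mice that had no whiskers and were kept in an empty cage. Each library pooled 5 pairs of barrel cortices, so the 3 values of a group are pools and not single animals. Whiskers and surroundings differed together between the groups and cannot be told apart. The labels give neither group a transgene or a drug, and no source used here gives the age of the mice or the time spent exploring. Another experiment of the study is set beside this one further on. There, 4 libraries came from cortex and hippocampus of C57BL/6 CamKIIa-tTA; TRE-hM3Dq mice, in which the CamKIIa promoter drives an activating designer receptor (DREADD) in glutamatergic neurons, taken 3 hours after its ligand CNO. Their 4 controls were littermates given CNO that did not express the receptor according to the study's design text, although their genotype label is the same.

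Brain endothelial cells line the vessels and form the blood-brain barrier, with sealed junctions, little vesicular transport, and dedicated carriers and efflux pumps. Neuronal activity raises local blood flow, and the endothelium takes part through vasoactive messengers and through its own sensing of flow. Chaperones of the heat shock family help proteins fold and are induced by many stimuli through heat shock factors. Endothelial cells also keep a circadian clock, whose output factors Dbp, Tef and Hlf (the PAR bZIP family) bind D-box sequences in the promoters of their target genes.

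Expression was measured by paired-end RNA sequencing of cells sorted for CD31, an endothelial surface protein, and is given as CPM, each library's read counts scaled to the same total. The 6 libraries held 44187482 to 57673270 reads, and 12776 of 37991 genes had at least 1 CPM in 3 or more of them and were tested. The endothelial label held: 14 of 14 endothelial markers were tested, among them Cldn5 at 2874, 3002 and 2034 CPM in whisker plus, against 3044, 2912 and 2277 CPM in whisker minus. Their summed level was 23831 to 24867 CPM in whisker plus and 24207 to 25123 CPM in whisker minus. T cell gene Cd3e and neutrophil gene Ly6g were at 0 in all 6 libraries, the only 2 of 11 macrophage and leukocyte markers that were. That list summed to 8.16, 4.58 and 4.81 CPM in whisker plus, against 4.18, 3.94 and 4.27 CPM in whisker minus. Summed pericyte markers were 1071, 785 and 675 CPM in whisker plus, against 1112, 1042 and 590 CPM in whisker minus. In a bulk sample, fewer cells of a type and less RNA per cell cannot be told apart.

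Transcripts of astrocytes differed between the libraries of 1 group. The summed level of 12 astrocyte markers was 442, 484 and 481 CPM in whisker plus, against 407, 1505 and 1326 CPM in whisker minus. Whisker minus libraries 2 and 3 therefore stood apart, while whisker minus 1 lay just under the 3 whisker plus libraries. Whisker minus 2 and 3 were also the highest libraries for the glutamate transporter gene Slc1a2, at 82.7, 111 and 117 CPM in whisker plus, against 79.6, 470.5 and 489 CPM in whisker minus, and for the water channel gene Aqp4, at 5.03, 7.61 and 6.41 CPM in whisker plus, against 5.13, 25.4 and 24.5 CPM in whisker minus. Of the 12 markers, 7 fell with the replicate block described next (2 with TMM scaling) and none rose, and their median log2 change between the libraries numbered 1 was 0.066. Summed smooth muscle markers were also uneven, at 208, 555 and 421 CPM in whisker plus, against 149.7, 1765 and 628 CPM in whisker minus, with whisker minus 2 the highest. Summed neuron markers were 55.6, 59.2 and 58.1 CPM in whisker plus, against 58.5, 88.3 and 80.3 CPM in whisker minus, again highest in whisker minus 2 and 3. Of 8 tested oligodendrocyte lineage markers, 7 lay below 0 (median log2 change -0.56, and 0.29 in pair 1). Summed microglia markers were 137, 92.1 and 59.8 CPM in whisker plus, against 58.0, 70.2 and 75.8 CPM in whisker minus, and all 10 tested microglia markers had a mean log2 change above 0, none past the threshold. Red blood cell genes summed to 1084, 1531 and 625 CPM in whisker plus, against 708, 806 and 608 CPM in whisker minus, with the groups overlapping, and the globin genes Hbb-b1 and Hba-a1, which have close copies, rose (0.59 and 0.44, log2). Because whisker minus 1 and whisker plus 1 had similar astrocyte sums, the log2 change between these 2 libraries (pair 1) is given beside many of the results below. Pair 1 was not alike for other cell types. Its median log2 change was 1.48 for microglia markers, against 0.39 and -0.23 in pairs 2 and 3, and 0.49 for smooth muscle markers. Pair 1 is part of the fit that called the genes, so its direction is a description and not separate evidence.

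**Figure D1:**
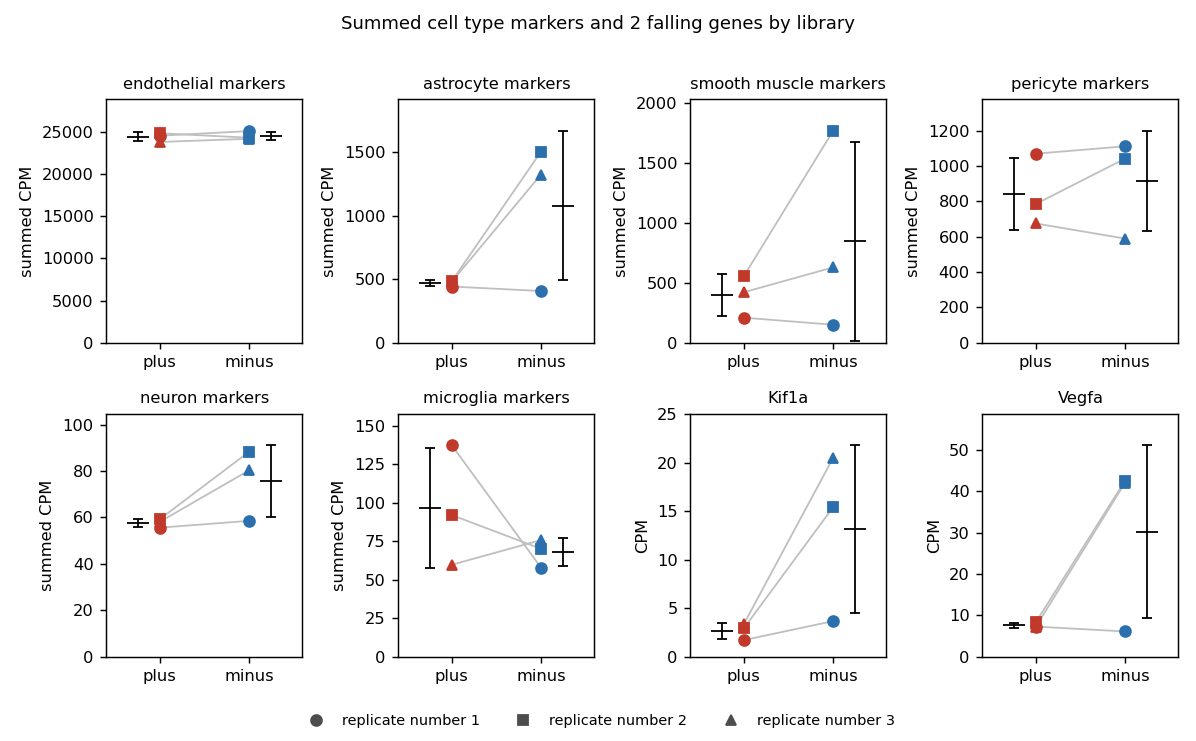
Summed CPM of 6 cell type marker lists, and CPM of the genes Kif1a and Vegfa, in each whisker plus (left) and whisker minus (right) library. Lines join libraries with the same replicate number, and bars give mean ± SD (n = 3). Endothelial sums stayed between 23831 and 25123 CPM, while astrocyte sums of whisker minus 2 and 3 reached 1505 and 1326 CPM.

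In their deviations from the group means, libraries with the same replicate number resembled each other across the groups. Fos, an immediate early transcription factor gene, shows this: it was at 4829.8, 3633 and 2568 CPM in whisker plus, against 5429.5, 3725 and 2401 CPM in whisker minus, with the number 1 libraries highest and the number 3 libraries lowest in both groups. Over the tested genes, the replicate number held 52.8% of the summed squares of log2 values (2 degrees of freedom) and the group 28.6% (1 degree of freedom). By the SD of log2 differences over genes, however, whisker plus 2 and 3 were nearer to whisker minus 1 (0.317 and 0.389). Their distances to the whisker minus library of their own number were 0.403 and 0.407. The comparison was therefore made with limma on log2(CPM + 1) both without and with the replicate number as a block. Without the block, 0 of 12776 genes had an adjusted p under 0.05 (limma, Benjamini-Hochberg; the smallest was 0.164), and 1656 had an unadjusted p under 0.05. The edgeR quasi-likelihood test on the reads recovered from the CPM also called 0 genes and DESeq2 called 406. With the block, limma called 1097 genes (8.59%), of which 382 were higher (2.99%) and 715 lower (5.6%) in whisker plus. These shares are the background against which the counts of gene lists below stand. "Rose" and "fell" are used below only for genes called with the block, and errors of log2 changes are its standard errors.

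The blocked count leaned on single pairs and on the filter for low genes. It was 2334 without pair 1, 799 without pair 2 and 1 without pair 3, and the remaining gene was Lcn2 (log2 change 2.29, adjusted p = 0.00192). It was 0 when genes below 1 CPM were also tested, with 3586 unadjusted p under 0.05. Without the block, leaving out whisker minus 1 gave 309 calls, 25 higher and 284 lower in whisker plus. The median log2 change of all tested genes was -0.068, and TMM scaling moved it to -0.0062 and the blocked calls to 484 higher (3.79%) and 359 lower (2.81%). The rising genes had medians of 0.28, 0.34 and 0.40 on the log2 scale in pairs 1, 2 and 3, and all 382 were higher in whisker plus in each pair, which the blocked test favours by its construction. The falling genes had medians of -0.31, -0.51 and -0.57 in pairs 1, 2 and 3, and in 14 of the 715 the change in pair 1 was not below 0. The groups did not overlap for 284 of the rising and 516 of the falling genes, against 722 (5.65%) and 1717 (13.4%) of all tested genes with whisker plus wholly above or wholly below whisker minus.

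Lcn2, Ackr1, Serpina3g and Lrg1 had the largest increases in whisker plus among the genes named by rule. The rule took the 12 largest folds among genes called with the block, averaging 5 CPM or more and with no overlap between the groups, so that their separation is part of how they were chosen. Lcn2, which encodes the iron-sequestering acute-phase protein lipocalin 2, was at 88.5, 56.7 and 72.7 CPM in whisker plus, against 17.7, 10.6 and 4.56 CPM in whisker minus. The lowest whisker plus library had over 3 times the level of the highest whisker minus library, and the log2 change was 2.77 ± 0.23 (adjusted p = 0.00132 with the block and 0.18 without it). Ackr1, the atypical chemokine receptor of venous endothelium that the table lists under its older symbol Darc, was at 24.6, 9.62 and 14.3 CPM in whisker plus, against 4.46, 1.72 and 2.74 CPM in whisker minus, and rose by 2.08 ± 0.16 (adjusted p = 0.00132 with the block and 0.19 without it). Library 1 was the highest in both groups. Lrg1, a secreted glycoprotein that modulates endothelial TGF-beta signalling, was even within groups, at 8.56, 10.2 and 10.9 CPM in whisker plus, against 2.83, 3.58 and 3.48 CPM in whisker minus, and rose by 1.34 ± 0.17 (adjusted p = 0.00339 with the block and 0.164 without it). Serpina3g, a serine protease inhibitor gene of a large family whose copies may share reads, was at 8.68, 6.42 and 9.92 CPM in whisker plus, against 3.66, 0.747 and 1.73 CPM in whisker minus, and rose by 1.71 ± 0.23 (adjusted p = 0.00476 with the block). Its relatives Serpina3f and Serpina3n, named here after their values were seen, were at 6.88, 3.47 and 6.77 CPM in whisker plus, against 1.20, 0.0905 and 0.0876 CPM in whisker minus (Serpina3f), and at 3.07, 5.64 and 5.45 CPM in whisker plus, against 1.13, 0.837 and 0.569 CPM in whisker minus (Serpina3n). Whisker minus 2 and 3 held almost no Serpina3f. Neither relative would have met the 1 CPM filter without the whisker plus libraries.

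Angpt2, the Tie2 ligand that destabilises vessels and marks remodelling endothelium, was at 73.0, 96.4 and 64.5 CPM in whisker plus, against 44.6, 29.5 and 24.9 CPM in whisker minus, and rose by 1.24 ± 0.15 (adjusted p = 0.00294 with the block and 0.19 without it). Adamts9, a secreted matrix protease, was at 34.4, 51.0 and 65.1 CPM in whisker plus, against 27.6, 20.7 and 12.7 CPM in whisker minus, and rose by 1.28 ± 0.27 (adjusted p = 0.0209 with the block); its log2 change in pair 1 was 0.31. Plaur, the urokinase receptor, was at 104, 101 and 96.6 CPM in whisker plus, against 77.8, 56.7 and 31.6 CPM in whisker minus, and rose by 0.94 ± 0.17 (adjusted p = 0.0126 with the block). Whisker plus was nearly level for Plaur, and whisker minus 3 was its lowest library. The rest of the 12 were the chaperone gene Hsph1, described below, the membrane protein genes Mall (1.09) and Emp1 (0.99), the endosomal protein gene Litaf (1.01, and 0.39 in pair 1) and the cell cycle repressor gene E2f7 (0.90, all log2). Mall was at 70.5, 91.3 and 77.8 CPM in whisker plus, against 38.7, 42.0 and 30.8 CPM in whisker minus, and had an adjusted p of 0.00132 with the block and 0.164 without it.

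**Figure D2:**
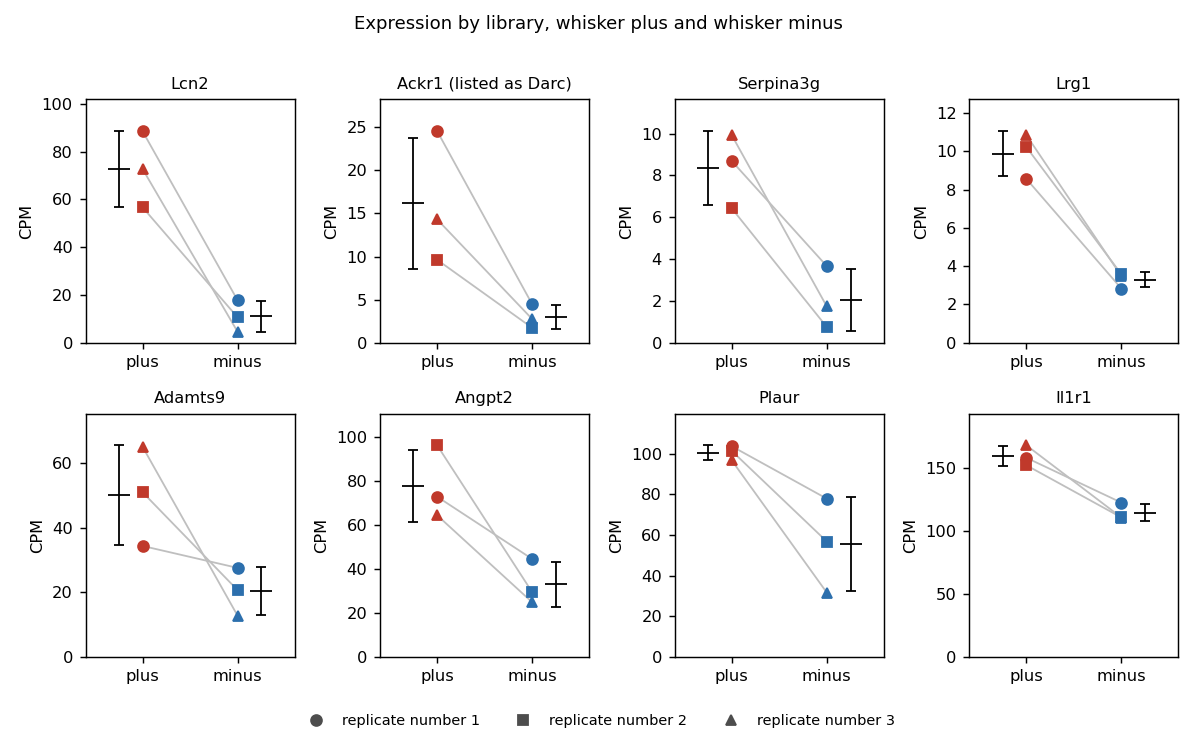
CPM of 8 rising genes in each whisker plus (left) and whisker minus (right) library. Symbols and joining lines give the replicate number, and bars give mean ± SD (n = 3). Every whisker plus value lies above every whisker minus value, with Lcn2 at 56.7 to 88.5 CPM in whisker plus and at most 17.7 CPM in whisker minus.

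Among genes of leukocyte adhesion and inflammation, 5 rose and 0 fell of 16 tested, with a median log2 change of 0.13. Besides Lcn2 and Lrg1, the interleukin-1 receptor gene Il1r1 rose, at 158, 152 and 168 CPM in whisker plus, against 122, 110.4 and 110.4 CPM in whisker minus (0.47 ± 0.062, adjusted p = 0.00402 with the block). Vcam1, an adhesion molecule for leukocytes, was at 139, 84.5 and 67.7 CPM in whisker plus, against 78.3, 63.3 and 56.4 CPM in whisker minus, and rose by 0.50 ± 0.096 (adjusted p = 0.0162 with the block), with whisker plus 3 inside the range of whisker minus. Sele, which encodes E-selectin, was low throughout, at 3.67, 2.35 and 1.01 CPM in whisker plus, against 0.555, 0.226 and 0.526 CPM in whisker minus. It rose by 1.14 ± 0.29 (adjusted p = 0.038, limma with the block) and is among the 5. All its whisker minus values lay below 1 CPM, so it met the filter only through whisker plus, which favours a rise. Of interferon and antigen presentation genes none of 20 tested passed in limma with the block. The microglia sum given above was highest in whisker plus 1, which was also the highest library for Vcam1, Sele and Lcn2, and its part in these results was not tested.

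Some cytosolic chaperones rose. Of heat shock genes, 6 rose and 1 fell of 16 tested, and the rest were not called. The median log2 change of the list was 0.31, with 12 members above 0 and 4 below. Hsph1, the large nucleotide exchange partner of Hsp70, was at 107, 88.1 and 108 CPM in whisker plus, against 47.1, 46.5 and 34.3 CPM in whisker minus. It rose by 1.24 ± 0.11 (adjusted p = 0.0018 with the block and 0.164 without it), with wide separation in every pair. Hsp90ab1, the constitutive Hsp90, was at 2847, 2632 and 2444 CPM in whisker plus, against 1922, 1925 and 1542 CPM in whisker minus, and rose by 0.56 ± 0.07 (adjusted p = 0.00339 with the block). Hsp90aa1, its inducible relative, was at 107, 83.6 and 108 CPM in whisker plus, against 74.6, 66.8 and 50.3 CPM in whisker minus, and rose by 0.64 ± 0.12 (adjusted p = 0.0141 with the block). Both Hsp90 genes have processed copies with which they may share reads, and for both the groups did not overlap.

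The small heat shock protein gene Hspb1 was at 525, 515 and 327 CPM in whisker plus, against 335, 399 and 229.5 CPM in whisker minus. Its groups overlapped, since the libraries numbered 3 were low in both, and it rose by 0.51 ± 0.062 (adjusted p = 0.00339 with the block and 0.432 without it). The constitutive Hsc70 gene Hspa8 behaved alike, at 349, 302 and 244 CPM in whisker plus, against 264, 261 and 149 CPM in whisker minus (0.44 ± 0.082, adjusted p = 0.0149 with the block). Hspa4l, of the Hsp110 family, was at 30.9, 30.5 and 41.1 CPM in whisker plus, against 19.6, 26.1 and 24.8 CPM in whisker minus (0.52 ± 0.11, adjusted p = 0.0234 with the block). The 1 member called in the other direction was Hspa1b, a stress-inducible Hsp70. It fell, at 109.7, 66.3 and 70.9 CPM in whisker plus, against 141, 90.8 and 75.2 CPM in whisker minus (-0.30 ± 0.076, adjusted p = 0.0413, limma with the block). Hspa1b has a near-identical copy, Hspa1a, and with TMM scaling it was not called (adjusted p = 0.127, limma with the block). In pair 1 the log2 changes were Hsph1 1.17, Hsp90aa1 0.52, Hsp90ab1 0.57, Hspb1 0.65, Hspa8 0.40, Hspa4l 0.63 and Hspa1b -0.36.

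**Figure D3:**
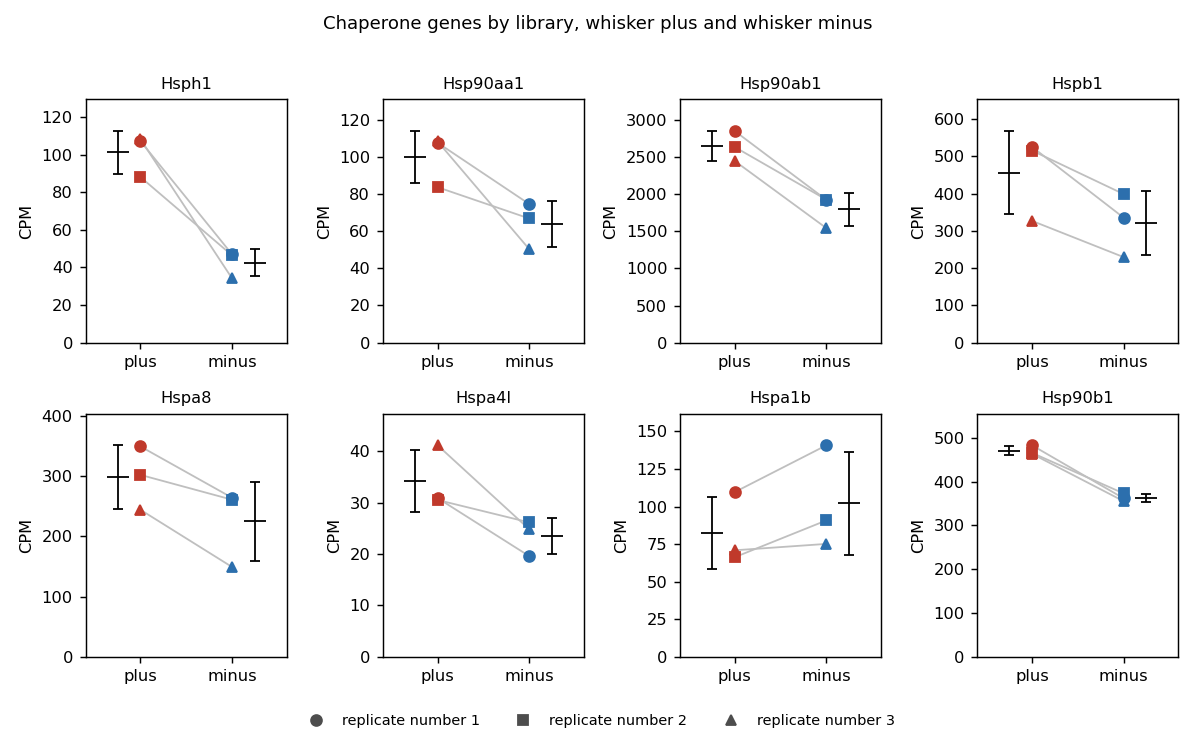
CPM of 7 heat shock chaperone genes and of the endoplasmic reticulum chaperone gene Hsp90b1 in each whisker plus (left) and whisker minus (right) library. Symbols and joining lines give the replicate number, and bars give mean ± SD (n = 3). The joining lines slope down to whisker minus in all panels but Hspa1b.

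The promoters of the rising chaperones are shown because heat shock factors act through short inverted repeats in such promoters. RefSeq promoter sequences (GRCm38.p6, 250 bases before to 50 after the start) were at hand for 11 of the 16 tested chaperones and for 3 of the 6 that rose. They were searched on both strands for the heat shock element letters GAANNTTC and TTCNNGAA, whose matches may overlap. Hsph1 held 3 matches, Hspb1 held 2 and Hspa4l held 0, with matches in capitals below. Of the 11 chaperone genes 9 held at least 1 match in any of their promoters, Hspa1b among them, and of all 32851 promoters 15.1% did. The first count is by gene and the second by promoter, so they are unlike measures.
Hsph1, chr5:149636266-149636565, minus strand: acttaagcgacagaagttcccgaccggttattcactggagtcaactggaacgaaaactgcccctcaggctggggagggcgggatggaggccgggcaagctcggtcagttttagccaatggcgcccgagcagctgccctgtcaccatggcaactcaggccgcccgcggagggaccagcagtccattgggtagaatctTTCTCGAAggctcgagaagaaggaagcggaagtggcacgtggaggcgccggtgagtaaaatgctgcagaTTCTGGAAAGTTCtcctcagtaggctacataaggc
Hspb1, chr5:135887669-135887968, plus strand: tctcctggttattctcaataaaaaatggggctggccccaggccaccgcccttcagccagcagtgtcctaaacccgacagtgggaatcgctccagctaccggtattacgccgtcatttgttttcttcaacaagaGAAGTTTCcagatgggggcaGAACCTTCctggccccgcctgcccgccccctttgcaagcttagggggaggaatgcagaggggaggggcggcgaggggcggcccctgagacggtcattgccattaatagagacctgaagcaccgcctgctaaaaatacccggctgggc
Hspa4l, chr3:40745363-40745662, plus strand: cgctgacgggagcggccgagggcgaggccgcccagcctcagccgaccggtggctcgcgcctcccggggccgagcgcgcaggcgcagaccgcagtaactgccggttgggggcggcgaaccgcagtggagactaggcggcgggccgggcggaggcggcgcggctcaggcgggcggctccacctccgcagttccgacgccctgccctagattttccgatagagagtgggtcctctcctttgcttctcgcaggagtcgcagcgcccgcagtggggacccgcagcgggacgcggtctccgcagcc

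Several genes for protein folding in the endoplasmic reticulum rose as well. Of the genes of the unfolded protein response, 5 rose and 0 fell of 17 tested, with a median log2 change of 0.16 and 14 of 17 above 0. Hsp90b1, the Hsp90 of the endoplasmic reticulum, was at 483, 465 and 463 CPM in whisker plus, against 362, 373 and 355 CPM in whisker minus, and rose by 0.37 ± 0.053 (adjusted p = 0.00586 with the block). Xbp1, a transcription factor of this response, was at 172, 195 and 211 CPM in whisker plus, against 141, 146 and 139 CPM in whisker minus, and rose by 0.43 ± 0.066 (adjusted p = 0.00783 with the block). Neither overlapped between groups. The Hsp70 of the endoplasmic reticulum, Hspa5, rose by 0.28, the disulfide isomerase gene Pdia3 by 0.30 and the secreted stress factor gene Manf by 0.27 (log2). For Hspa5, whisker plus 3 lay below whisker minus 1, at 896, 725 and 632 CPM in whisker plus, against 754, 616 and 492 CPM in whisker minus, and without whisker minus 2 and 3 its log2 change was -0.021.

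Genes of flow sensing and vessel tone were the next group with several increases: of 16 tested, 5 rose and 1 fell. Thbd, the anticoagulant receptor thrombomodulin that laminar flow maintains, was at 749.9, 935 and 795 CPM in whisker plus, against 567, 585 and 501 CPM in whisker minus, and rose by 0.58 ± 0.067 (adjusted p = 0.00273 with the block). Trpv4, a mechanosensitive calcium channel, was at 102, 125 and 125 CPM in whisker plus, against 68.1, 83.1 and 80.0 CPM in whisker minus, and rose by 0.60 ± 0.058 (adjusted p = 0.00195 with the block). In both the 3 whisker plus libraries lay above all whisker minus libraries. The endothelial nitric oxide synthase gene Nos3 was at 463, 507 and 443 CPM in whisker plus, against 418, 419 and 368 CPM in whisker minus (0.23 ± 0.055, adjusted p = 0.0325 with the block). Edn1, which encodes the vasoconstrictor endothelin 1, was at 336, 339.7 and 357 CPM in whisker plus, against 277, 292 and 329.8 CPM in whisker minus, and passed narrowly (0.20 ± 0.056, adjusted p = 0.0496 with the block). Ptgs2, the inducible cyclooxygenase, rose by 0.50 ± 0.093 (adjusted p = 0.0146 with the block), while flow-induced transcription factor genes Klf2 and Klf4 had log2 changes of 0.12 and 0.11 and did not pass (adjusted p = 0.302 and 0.332, limma with the block). Other haemostasis genes were mixed: Procr, the protein C receptor, rose (0.55), as did Anxa2, a plasmin-generating annexin (0.51), whereas Vwf, which encodes von Willebrand factor, fell (-0.28) at 578, 662 and 616 CPM in whisker plus, against 703, 808 and 739 CPM in whisker minus. The groups did not overlap for Vwf, but it was not called with TMM scaling.

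A few membrane and junction genes rose by small amounts. Of caveolae and transcytosis genes, 3 rose and 0 fell of 15 tested, and the 3 were the membrane-remodelling ATPases Ehd1, Ehd2 and Ehd4. Ehd2, which sits at the neck of caveolae, was at 439, 576 and 523 CPM in whisker plus, against 329, 399 and 369.7 CPM in whisker minus, and rose by 0.48 ± 0.054 (adjusted p = 0.00273 with the block). The caveolar coat gene Cav1 had a log2 change of -0.11 (adjusted p = 0.227, limma with the block). Of junction genes, 2 rose and 0 fell of 19 tested: the junctional adhesion molecule gene F11r (0.24) and the alpha-catenin gene Ctnna1 (0.23). Cldn5, the main sealing claudin of the barrier, had a log2 change of -0.067 and did not pass (adjusted p = 0.607, limma with the block). Mal, a membrane raft protein that is also used as an oligodendrocyte marker, was at 855, 1000.3 and 1131 CPM in whisker plus, against 580.1, 698 and 709 CPM in whisker minus, and rose by 0.58 ± 0.058 (adjusted p = 0.00195 with the block). The myelin gene Mbp was at 1.24, 0.758 and 0.403 CPM in whisker plus, against 0.659, 2.69 and 5.13 CPM in whisker minus, and the other 7 tested markers of that lineage had log2 changes below 0, none past the threshold.

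Several clock genes changed. Of the PAR bZIP output factors, Dbp was at 8.60, 6.61 and 4.94 CPM in whisker plus, against 11.03, 15.0 and 13.8 CPM in whisker minus, with every whisker plus library below every whisker minus library, and fell, with a log2 change of -0.90 ± 0.19 (adjusted p = 0.0233 with the block and 0.219 without it). In pairs 1, 2 and 3 the log2 changes of Dbp were -0.32, -1.07 and -1.32. Tef was at 65.7, 58.5 and 91.9 CPM in whisker plus, against 86.5, 113 and 114 CPM in whisker minus, with whisker plus 3 inside the range of whisker minus, and fell (-0.55 ± 0.11, adjusted p = 0.0171 with the block). Hlf had a log2 change of -0.22 and their repressor Nfil3 of 0.12, neither past the threshold (adjusted p = 0.406 and 0.685, limma with the block). Of 16 tested genes of the core loop, 3 rose and 2 fell. Arntl, the clock activator, was at 103, 102 and 97.7 CPM in whisker plus, against 84.2, 78.2 and 88.4 CPM in whisker minus, and rose by 0.27 ± 0.066 (adjusted p = 0.0349 with the block). Cry1, a repressor arm gene that peaks late in the cycle, was at 29.9, 35.6 and 36.0 CPM in whisker plus, against 23.7, 28.0 and 23.5 CPM in whisker minus, and rose by 0.42 ± 0.095 (adjusted p = 0.0282 with the block), and the clock kinase gene Csnk1e rose by 0.33. Per3 fell, at 16.8, 17.9 and 30.4 CPM in whisker plus, against 21.6, 25.9 and 43.1 CPM in whisker minus (-0.45 ± 0.096, adjusted p = 0.0232 with the block), with lower levels in whisker plus in every pair but overlapping groups. Nr1d1, whose end overlaps another gene on the opposite strand, fell by 0.25 on the log2 scale and was not called with TMM scaling.

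The other core loop genes with a mean of at least 5 CPM did not pass: Clock, Per1, Per2, Cry2, Nr1d2, Rora, Bhlhe40, Gm129 and Csnk1d had log2 changes of 0.0065, -0.045, -0.16, -0.38, -0.034, 0.01, 0.23, 0.068 and 0.064. Per1, which also responds acutely to stimuli, was at 573, 309 and 431 CPM in whisker plus, against 558, 341 and 441 CPM in whisker minus. No source used here gives the time of day of dissection. The Per3 promoter is shown because it was the 1 among 13 core loop genes with a RefSeq promoter at hand that held a D-box. Of the 4 PAR bZIP genes 0 held a D-box. E-box letters (CACGTG) were searched as well. They were held by 4 of the 13, Per1, Cry1, Bhlhe41 and Ciart (listed as Gm129), by Tef, and by 7.15% of all promoters. STAT site letters (TTCNNNGAA) were searched too, and their matches are not given. The D-box letters were TTANGTAA on both strands, which 2.32% of all 32851 promoters held, and the 2 matches in Per3 are in capitals. Counts of genes take any promoter of a gene, while the percentages are by promoter.
Per3, chr4:151044616-151044915, minus strand: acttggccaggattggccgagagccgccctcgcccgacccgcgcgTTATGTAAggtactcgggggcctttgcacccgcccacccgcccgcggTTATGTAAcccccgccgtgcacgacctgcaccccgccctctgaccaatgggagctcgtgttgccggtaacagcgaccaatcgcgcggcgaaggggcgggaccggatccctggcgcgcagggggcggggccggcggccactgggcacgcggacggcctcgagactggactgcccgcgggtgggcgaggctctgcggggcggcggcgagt

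Among enzymes of monoamine metabolism, 1 rose and 3 fell of 7 tested. Ddc, the decarboxylase that makes dopamine and serotonin and forms an enzymatic barrier in brain vessels, was at 195, 188 and 199 CPM in whisker plus, against 273, 314 and 305 CPM in whisker minus. The groups did not overlap, and it fell, with a log2 change of -0.61 ± 0.06 (adjusted p = 0.00195 with the block and 0.164 without it). In pair 1 the log2 change was -0.49. Maob, a monoamine oxidase that astrocytes also express, fell (-0.56), and so did Qdpr, which regenerates the cofactor tetrahydrobiopterin (-0.27). Gch1, which starts synthesis of that cofactor, rose (0.33). Qdpr was not called with TMM scaling.

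Of 23 tested carriers of the barrier, 2 rose and 6 fell. The transferrin receptor gene Tfrc was at 687, 798 and 794 CPM in whisker plus, against 1051, 1011 and 1084 CPM in whisker minus, and fell (-0.47 ± 0.066, adjusted p = 0.00547 with the block). Slc22a8, an organic anion transporter, was at 428, 418 and 444 CPM in whisker plus, against 591, 506 and 619.6 CPM in whisker minus (-0.41 ± 0.06, adjusted p = 0.00696 with the block), and Slc16a1, the monocarboxylate carrier, was at 730.3, 715 and 528 CPM in whisker plus, against 1059, 813 and 829.9 CPM in whisker minus (-0.46 ± 0.083, adjusted p = 0.0135 with the block). The glutamine carrier gene Slc38a3 fell by 0.33 on the log2 scale. These 4 did not overlap between groups, and their log2 changes in pair 1 were -0.61, -0.46, -0.54 and -0.35. With TMM scaling Slc38a3 was not called. The fatty acid carrier gene Slc27a1 fell (-0.96, and -0.16 in pair 1) and was highest in whisker minus 2 and 3, at 22.2, 19.8 and 22.1 CPM in whisker plus, against 25.0, 49.7 and 61.9 CPM in whisker minus. The organic anion carrier gene Slco2b1 rose by 0.29 and the zinc exporter gene Slc30a1 by 0.21. The glucose carrier gene Slc2a1 had a log2 change of 0.20 (adjusted p = 0.208, limma with the block).

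Of the efflux pumps of the ABC family, 1 of 8 fell and none rose. It was Abcc6, at 81.3, 72.7 and 91.3 CPM in whisker plus, against 119.8, 86.4 and 137 CPM in whisker minus (-0.46 ± 0.075, adjusted p = 0.00969 with the block). Abcb1a, which encodes P-glycoprotein, was at 2281, 2202 and 2457 CPM in whisker plus, against 2763, 2410.4 and 2779 CPM in whisker minus, a log2 change of -0.19 that did not pass (adjusted p = 0.111 with the block and 0.52 without it, limma). The other pumps with a mean of at least 5 CPM, Abcg2, Abcc1, Abcc4, Abcc5 and Abcc10, had log2 changes of -0.077, 0.021, -0.097, -0.066 and -0.63, none past the threshold. Among lipid transporters of the family, the cholesterol exporter gene Abca1 fell (-0.37) and so did Abca2 (-0.48), both without overlap. In pair 1 their log2 changes were -0.25 and -0.28.

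Of 18 tested glycolysis and hypoxia genes, 6 fell and none rose in whisker plus, with a median log2 change of -0.18 for the list. Pfkl, a subunit of the rate-limiting phosphofructokinase, was at 147, 143 and 131 CPM in whisker plus, against 199, 203 and 177 CPM in whisker minus, and fell (-0.45 ± 0.054, adjusted p = 0.00294 with the block). The pyruvate kinase gene listed as Pkm2 was at 442, 429 and 373 CPM in whisker plus, against 563, 562 and 500.0 CPM in whisker minus (-0.39 ± 0.053, adjusted p = 0.00476 with the block), and the isomerase gene Tpi1 at 98.0, 86.9 and 74.7 CPM in whisker plus, against 119.5, 131 and 109 CPM in whisker minus (-0.47 ± 0.071, adjusted p = 0.00736 with the block). For these 3 the groups did not overlap, and their log2 changes in pair 1 were -0.43, -0.35 and -0.28. Aldoa and Eno1 fell too (-0.29 and -0.52), and the sixth was Vegfa, described further on. Of 31 genes of oxidative phosphorylation none passed, although 28 lay below 0 (median -0.10, against -0.068 for all genes), and in pair 1 the median was 0.032. In sterol synthesis Mvk (-0.71), Pmvk (-0.42) and Dhcr7 (-0.58) fell of 22 tested. With TMM scaling Aldoa, Vegfa and Pmvk were not called.

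**Figure D4:**
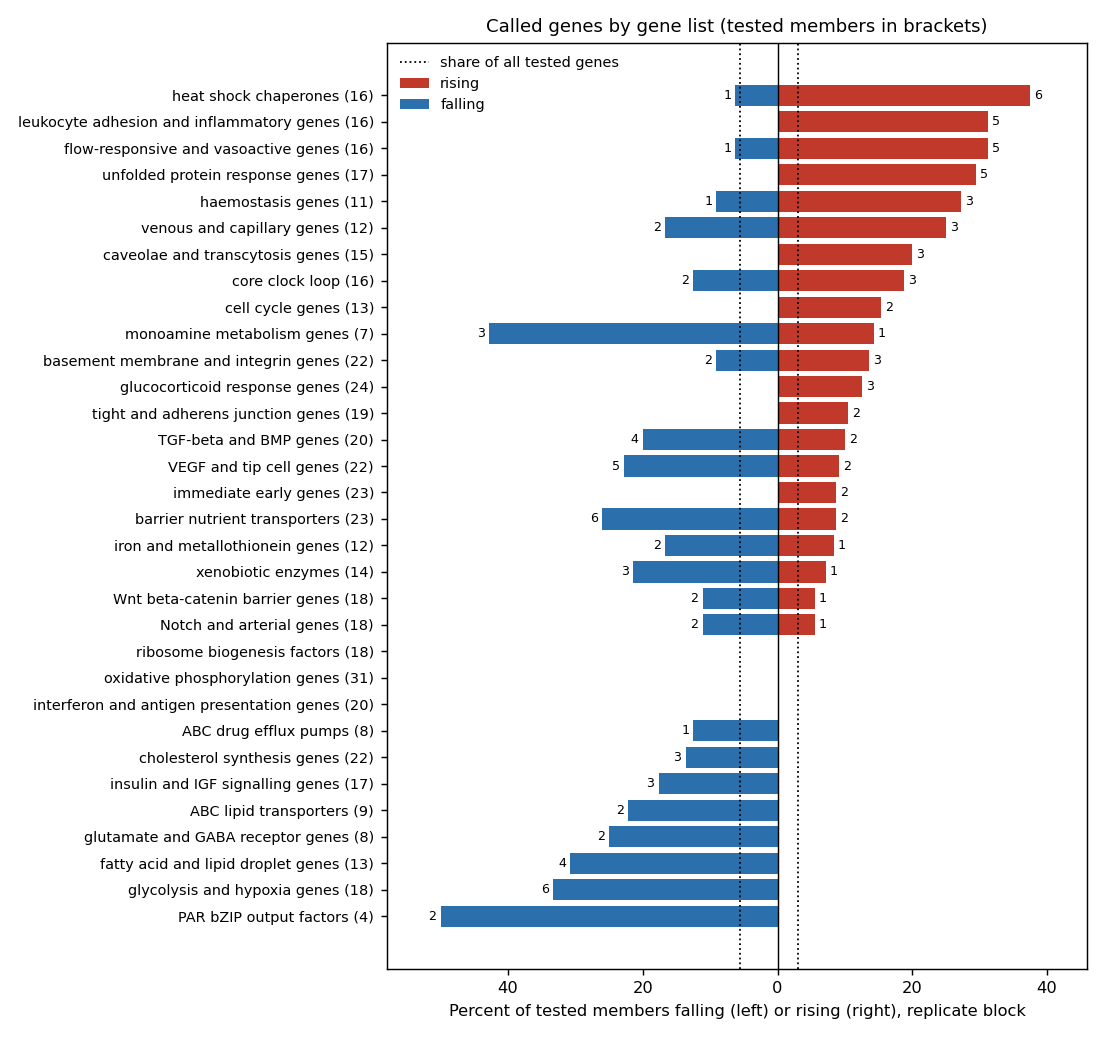
Share of the tested members of 32 gene lists that rose (right) or fell (left) in whisker plus against whisker minus, limma with the replicate block. Numbers at the bars count genes, brackets give tested members, and dotted lines mark the shares over all tested genes, 2.99% rising and 5.6% falling. Heat shock chaperones have the highest rising share, 6 of 16.

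Growth factor genes were split between the directions. Among VEGF and tip cell genes, Angpt2 and Plaur rose, while Unc5b, a guidance receptor (-0.48), Nrp1, a VEGF co-receptor (-0.35), and Vegfc, the ligand of VEGF receptor 3 (-0.46), fell, as did Vegfa and Apln below. Unc5b was at 120.5, 137 and 128 CPM in whisker plus, against 191, 158 and 194 CPM in whisker minus, without overlap. Of the TGF-beta and BMP genes, the ligand Tgfb2 fell, at 40.0, 49.7 and 49.1 CPM in whisker plus, against 71.0, 69.3 and 101 CPM in whisker minus (-0.77 ± 0.097, adjusted p = 0.00339 with the block). The co-receptor Tgfbr3 and the receptor Tgfbr2 fell (-0.37 and -0.22), the ligand Bmp6, at 1.14 CPM on average in whisker plus and 3.04 CPM in whisker minus, fell too (-0.89), whereas the signal transducer Smad1 and the inhibitor Smad7 rose (0.41 and 0.33). Arterial genes Alpl and Gkn3 fell (-0.47 and -0.69), and Notch4 rose by 0.20. Ccnd1 and the cell cycle inhibitor Cdkn1a rose (0.40 and 0.29). In the basement membrane list Nid1, Itgb1 and Sparc rose (0.45, 0.29 and 0.28), and Agrn and Sparcl1 fell (-0.31 and -0.31, all log2). With TMM scaling Nrp1, Vegfa, Vegfc, Tgfbr2, Bmp6, Notch4, Agrn and Sparcl1 were not called.

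Smaller sets of calls came from other lists. In Wnt signalling of the barrier, 1 rose and 2 fell of 18 tested: the receptor gene Adgra2, listed as Gpr124, rose (0.25), while its partner Reck (-0.23) and the Wnt inhibitor Znrf3 (-0.36) fell. Gpr124 was at 637, 689 and 676 CPM in whisker plus, against 555, 563 and 569.6 CPM in whisker minus, and Reck was at 240.3, 239 and 259 CPM in whisker plus, against 272, 271 and 328 CPM in whisker minus. Of 14 tested enzymes of xenobiotic and oxidant metabolism, the peroxidase gene Gpx1 rose (0.44), and the epoxide hydrolase gene Ephx1, the glutathione transferase gene Gsta4 and the P450 reductase gene Por fell (-0.35, -0.27 and -0.24). Of 24 glucocorticoid response genes, 3 rose and none fell, namely Lcn2, Cdkn1a and the acute-phase transcription factor gene Cebpd (0.48), whereas Fkbp5, a classical glucocorticoid target, had a log2 change of 0.30 (adjusted p = 0.186, limma with the block). Of 17 insulin and IGF genes, the IGF2 receptor gene Igf2r and the PI3-kinase subunit gene Pik3r1 fell (-0.44 and -0.28), with Igfbp5 described below. With TMM scaling Reck, Gsta4, Por and Pik3r1 were not called. None of 18 ribosome biogenesis factors passed.

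Of 23 tested immediate early genes, 2 rose and none fell: Maff, at 336, 244 and 221 CPM in whisker plus, against 277, 185 and 129.6 CPM in whisker minus, and Ctgf, at 259, 258 and 269 CPM in whisker plus, against 174, 229 and 243 CPM in whisker minus. Without whisker minus 2 and 3 the log2 change of Maff was -0.076. Fosb was at 3429.8, 1903 and 1850.0 CPM in whisker plus, against 3932, 2038 and 1958 CPM in whisker minus, and Egr1 was at 2091, 1453 and 850.3 CPM in whisker plus, against 2605, 1801 and 777 CPM in whisker minus. Fos had a log2 change of -0.036 and Fosb of -0.13, neither past the threshold (adjusted p = 0.819 and 0.28, limma with the block). For both, the spread among libraries of 1 group exceeded the difference between the groups.

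The 12 largest decreases, chosen by the same rule, had their highest levels in the libraries with the highest astrocyte sums. Kif1a, a neuronal vesicle motor, was at 1.72, 2.94 and 3.37 CPM in whisker plus, against 3.68, 15.4 and 20.5 CPM in whisker minus; its log2 change was -1.71 ± 0.27 (adjusted p = 0.00835 with the block and 0.274 without it), and in pair 1 it was -0.78. Slc25a18, a mitochondrial glutamate carrier of astrocytes, was at 3.27, 3.47 and 3.35 CPM in whisker plus, against 4.58, 28.3 and 16.3 CPM in whisker minus (-1.70, and -0.39 in pair 1). The others were Srgap3, Pcdh10, Scg3, Fads2, Rab11fip4, Fam171b, Caskin1, Igfbp2, Gramd1b and Adrbk2, with log2 changes of -1.52 to -1.17. In all 12, whisker minus 2 and 3 were the highest libraries and whisker minus 1 lay nearer to whisker plus. The neuron marker sum and most oligodendrocyte lineage markers were also higher in these libraries than in whisker minus 1, and the part of any of these cell types in the decreases was not tested. Vegfa had the same shape, at 7.32, 8.35 and 7.27 CPM in whisker plus, against 6.14, 42.5 and 42.1 CPM in whisker minus, with a log2 change of -1.46 and of 0.22 in pair 1, where it was not lower. The list members Grin2c, Gria2, Mt3, Ednrb, Apln and Igfbp5, which fell by 0.98 to 1.81 on the log2 scale, also had their highest levels in whisker minus 2 and 3, and their log2 changes in pair 1 were -0.072, -0.13, -0.12, -0.11, -0.42 and -0.44. Fatty acid synthesis genes Fasn, Scd1, Scd2 and Acsl3 fell (-0.63, -0.69, -0.48 and -0.55), with log2 changes in pair 1 of -0.14, -0.29, -0.11 and -0.087. Scd1 was not called with TMM scaling. Without whisker minus 2 and 3 the log2 changes of Vegfa, Grin2c, Gria2, Igfbp5 and Scd1 were 0.27, 0.097, 0.034, 0.024 and 0.045. Leaving out these libraries, which keeps a single whisker minus library, left 368 of the 382 rising and 660 of the 715 falling genes in their direction. Their median log2 changes were then 0.32 and -0.29. Since the genes were called with whisker minus 1 included, this is a description and not separate evidence. In pair 1, 382 of the rising and 701 of the falling genes already had that direction. The fit without whisker minus 2 and 3 rests on that single whisker minus library, so only its effect sizes are given.

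The whisker changes were next set beside those after 3 hours of DREADD activation, an experiment with its own controls, on cortex and hippocampus. Of 12458 genes tested in both, 381 rose and 708 fell in the whisker comparison, and 130 (1.04%) rose and 102 (0.819%) fell after activation (limma with the replicate block in each; 8 and 9 without the block after activation). The genes that rose in both numbered 69, 18.1% of the whisker risers and 53.1% of the activation risers. Those that fell in both numbered 45, 6.36% of the whisker and 44.1% of the activation decreases. No gene rose in one and fell in the other. Of the 381 whisker risers, 93.2% had an activation change above 0, against 47.8% of all 12458 genes, and of the 708 decreases 80.1% had one below 0, against 52.2%.

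Ddc fell in both, by 0.61 in the whisker comparison and 1.08 after activation (log2; adjusted p = 0.00523 after activation, limma with the block). Tef did too, by 0.55 in the whisker comparison and 0.91 after activation. Dbp had log2 changes of -0.90 in the whisker comparison and -0.92 after activation, where it did not pass (adjusted p = 0.0786, limma with the block). Mall, Adamts9, Hsp90aa1 and Trpv4 rose by 1.09, 1.28, 0.64 and 0.60 in the whisker comparison, and by 1.10, 2.00, 0.73 and 0.57 after activation. Lcn2, Ackr1, Serpina3g and Lrg1 had whisker changes of 2.77, 2.08, 1.71 and 1.34, beside activation changes of 0.12, 0.34, -0.24 and 0.033 that did not pass. The difference between the 2 effects did not pass for these 4 (adjusted p = 0.381, 0.555, 0.381 and 0.804, limma with the block). Tested over all genes, the difference was called for 0 of 12776 without the block, with 497 unadjusted p under 0.05, and for 1 (0.00783%) with it, Cnn2. The brain regions and the treatment of the animals also differ between the experiments and cannot be told apart from the stimulus.

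**Figure D5:**
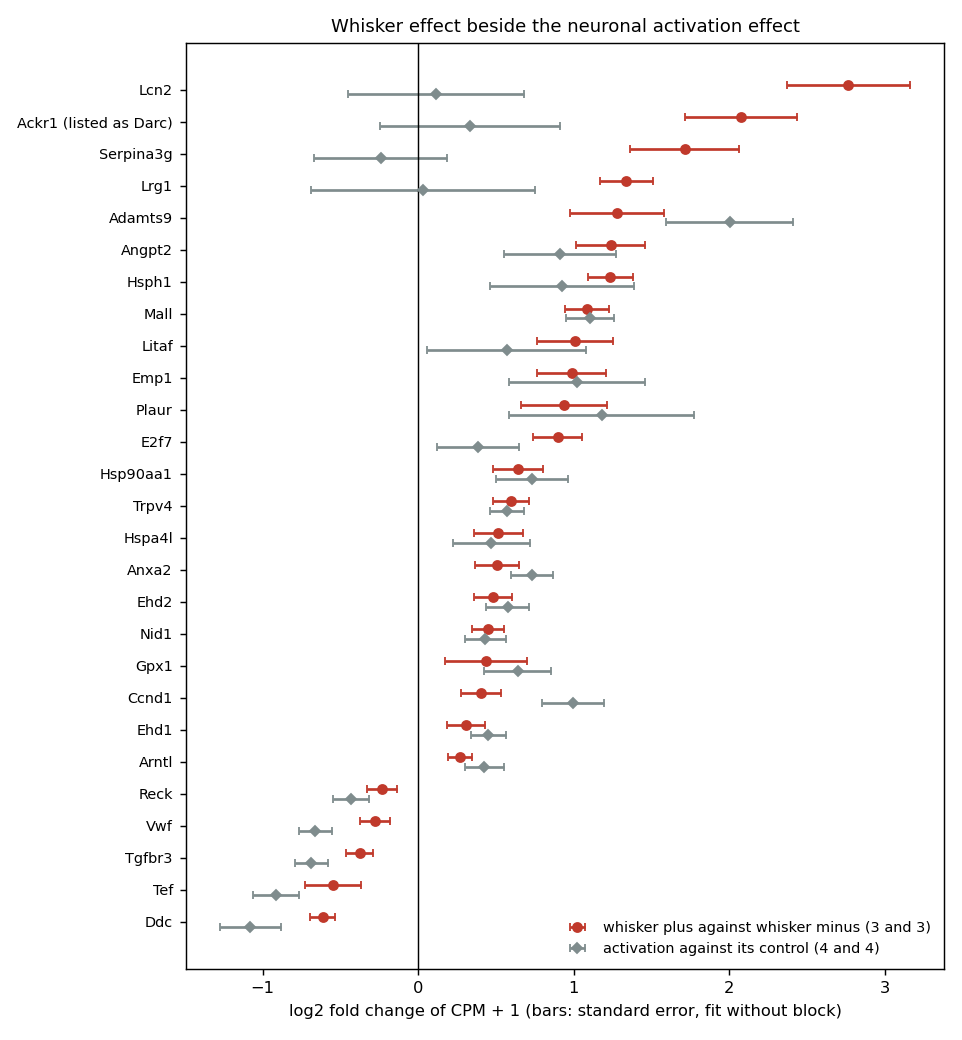
Log2 fold changes of whisker plus against whisker minus (circles, 3 and 3 libraries) and of activation against its control (diamonds, 4 and 4 libraries) for 27 genes. Shown are the 12 largest increases and the named genes called in both experiments, with standard errors of the fits without block. Lcn2, Ackr1, Serpina3g and Lrg1 lie near 0 after activation, and Mall, Trpv4 and Hsp90aa1 have similar changes in both.

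The authors' deposited table of whisker changes marks 1234 genes, 727 higher and 507 lower in whisker plus, of which 246 have an FDR under 0.05 there. None of the marked genes has a deposited p of 0.05 or more, while the calls here used an adjusted p, so the thresholds are unlike. Of these 1234 genes in the authors' deposited table, 745 were also called here with the block, which is 60.4% of the marked genes and 67.9% of those called here, all 745 with the same sign. Both lists come from the same 6 libraries, so the shared sign is not separate evidence. No source used here gives the settings behind the authors' deposited table.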

How the data were processed

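RNA sequencing measured 22 libraries of sorted mouse brain endothelial cells. Per the submitters' processing notes, the tools were SAMtools 0.1.19, HTSeq 0.6.1, DESeq2, Bowtie2 2.2.1 and TopHat2 2.0.11, with genome build mm9. The authors deposited 1 table of CPM (read counts scaled to the same library total) for 37991 genes, with a separate table of whisker results holding log2 fold changes, FDR and p-values. In every library 100% of the CPM values were whole multiples of 1 read within 0.01 read, and these reads served DESeq2 1.42.0 and edgeR 4.0.16 as alternatives. Names that a spreadsheet had turned into dates (25) were restored by gene ID. The main test was limma 3.58.1 (R 4.3.3, trended variance, Benjamini-Hochberg) on log2(CPM + 1), which understates changes of low genes, for genes with at least 1 CPM in 3 of the 6 libraries. The fit with the replicate number as a block was the other one. The numbers were used as pairs. Deviations from the group means correlated by 0.462, 0.481 and 0.617 between same-numbered libraries and by -0.470 to -0.0403 between others. Such deviations cancel within a group, so negative values between other numbers follow from positive ones between same numbers. What a number marks is not given. Without the block, the p-values measure the spread between pools of a group. With it, they measure the spread of the differences between same-numbered pools, with 2 residual degrees of freedom per gene. With 3 against 3 and no pairing, an exact permutation test cannot go below 0.1. Swaps within the 3 pairs allow still fewer arrangements, so neither was used. Scripts were tested on simulated data. Members and lists were chosen with earlier results of these data known. Named are the 12 largest increases and decreases without overlap and above 5 CPM, every called list member and up to 4 most abundant members of each list; Cav1, Cldn5, Cnn2, Egr1, Fkbp5, Fos, Fosb, Klf2, Klf4, Mbp, Serpina3f, Serpina3n and Slc2a1 fall outside this rule and were chosen after their values were seen. The silencing experiment entered only fits over all 22 libraries. Counting did not state strand, so overlapping antisense genes cannot be told apart. Promoters are RefSeq sequences of another build than the files, with no file coordinate used.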

Additional observations from a re-analysis of the deposited data

Results flagged for a closer look

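Cnn2, an actin-binding calponin gene named here after its values were seen, was the 1 gene whose whisker effect differed from its activation effect (difference of log2 changes -0.81, adjusted p = 0.0197, limma with the replicate block). It was at 126, 158 and 127 CPM in whisker plus, against 137, 151 and 130.2 CPM in whisker minus, with overlapping groups and a log2 change of -0.030. After activation it was at 252, 174, 229 and 218 CPM, against 148, 105, 129.9 and 121 CPM in the activation controls, without overlap and with a log2 change of 0.78. Without the block the difference had an adjusted p of 1.00 (limma), and with the block it was not called under TMM scaling, under RLE scaling or by edgeR.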

How the results depend on the processing

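With the replicate block, the 1097 calls (382 higher, 715 lower in whisker plus) were 843 with TMM scaling (484 higher, 359 lower; 736 shared), 750 with edgeR (682 shared) and 1263 with DESeq2 (841 shared), but 722 with RLE scaling (435 higher, 287 lower), 201 in a fit of all 22 libraries (50 higher, 151 lower) and 0 with no filter on low genes. Leaving out 1 pair gave 1 to 2334 calls. Without the block the count was 0; it was 1097 with the block, 6 in a fit of all 22 libraries, 406 with DESeq2 and 0 to 309 with 1 library left out, 309 being without whisker minus 1. Those 6 were 4930594M22Rik, Dpy19l3, Pcca, Pfkm, Pion and Selenbp1, all lower. The difference from activation was called for 0 genes without the block, for 1 with it, for 1 in all 22 libraries and 1 with edgeR (Akr1e1 in both), for 12 with DESeq2 and for 0 to 167 with 1 library left out, 167 being without whisker minus 1. With the block it was 0 with TMM or RLE scaling, no filter, all 22 libraries or edgeR, 106 with DESeq2 and 0 to 226 with 1 pair left out, 226 being without whisker pair 1. Changes of sign among named genes touched small, uncalled log2 changes under scaling: Per1 (0.021 TMM, 0.027 RLE, 0.031 edgeR, 0.037 DESeq2; with the block 0.021, 0.027, 0.021 and 0.027), Nr1d2 (0.031, 0.037, 0.038 and 0.044; with the block 0.031, 0.037, 0.032 and 0.038), Abcc5 (0.0054 RLE, 0.0009 edgeR, 0.0083 DESeq2; with the block 0.0054 RLE and 0.0055 DESeq2) and Per2 (0.0024 DESeq2). With 1 library or pair left out, log2 changes spanned 0 for Clock (-0.15 to 0.12), Per1 (-0.26 to 0.18), Per2 (-0.55 to 0.073), Nr1d2 (-0.13 to 0.068), Rora (-0.079 to 0.076), Bhlhe40 (-0.032 to 0.46), Gm129 (-0.25 to 0.39), Hlf (-0.42 to 0.064), Nfil3 (-0.20 to 0.34), Abcc1 (-0.11 to 0.14) and Abcc5 (-0.18 to 0.054). Without whisker minus 2 and 3, an alternative chosen after seeing the data, the sign changed for Maff (-0.076), Clock (-0.011), Per2 (0.015), Cry2 (0.20), Rora (-0.037), Bhlhe40 (-0.24), Gm129 (-0.58), Hlf (0.18), Nfil3 (-0.12), Abcc5 (0.12), Vegfa (0.27), Hspa5 (-0.021), Igfbp5 (0.024), Grin2c (0.097), Gria2 (0.034), Scd1 (0.045), Aqp4 (0.25), Aldh1l1 (0.047), Slc1a3 (0.15), Slc1a2 (0.36), Aldoc (0.063), Atp1b2 (0.22) and Mtap2 (0.19). The causes were not tested. Each library held 44187482 reads or more. Values near or below 1 CPM, such as those of Sele and Serpina3f in whisker minus and Bmp6 in whisker plus, rest on fewer reads.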
